A study of Mus musculus with 22 samples.

Results

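The 10 genes described here move calcium in striated muscle cells, and they were taken by name from the 43430 genes in the data. They are Mrln, Sln and Pln, which encode the short membrane peptides myoregulin, sarcolipin and phospholamban; Atp2a1 and Atp2a2, which encode the calcium pumps SERCA1 and SERCA2; Ryr1, Cacna1s and Jph1, which encode the ryanodine receptor of the sarcoplasmic reticulum, the voltage sensor of the surface membrane and the junctophilin that ties both membranes together; and Casq1 and Casq2, the calsequestrins that hold calcium inside the store. All 10 passed the filter on low counts, and 15084 genes were tested in all.

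RNA was sequenced from muscle stem cells (satellite cells) of the hindlimb of Pax7-zsgreen mice, in which the cells that express Pax7 carry a green fluorescent reporter and can be sorted. Every group carried this reporter, and every mouse was perfused with a mild paraformaldehyde fixative before the cells were taken. The 6 groups were uninjured muscle labelled ZT4 or ZT16 (3 libraries each), muscle 1 day after cardiotoxin injury at ZT4 or ZT16 (4 libraries each) and muscle 3 days after that injury at ZT4 or ZT16 (4 libraries each). Cardiotoxin is a snake venom toxin that destroys myofibers, ZT is zeitgeber time (hours after lights on), and the hour at which injured muscle was collected is not given in the sources used here. The age of the mice is also not given there, and nothing says whether libraries of a group came from separate mice, so p-values measure only the spread between these libraries, which may be technical.

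In resting muscle the SERCA pumps return calcium from the cytosol to the sarcoplasmic reticulum, and myoregulin, sarcolipin and phospholamban bind the pump within the membrane and lower its activity. When a fiber is excited, the voltage sensor opens the ryanodine receptor and the store, buffered by calsequestrin, empties into the cytosol. Most of these proteins are known from differentiated fibers, whereas SERCA2 in its widely expressed splice form serves the endoplasmic reticulum of most cells.

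Library totals ran from 5965957 to 9751536 estimated reads. The sorted cells expressed stem cell markers in every library, but less of them after injury. The 8 markers were Pax7, Myf5, Calcr, Itga7, Vcam1, Sdc4, Cdh15 and Chodl. Their summed CPM (counts scaled to a common library size) was 6140 to 9430 in uninjured libraries. It was 2260 to 3500 at day 1 and 2150 to 2560 at day 3. Of the 8, 6 were lower at day 1 and 6 at day 3, beside 40.6% and 39.1% of all genes tested. Markers of other cells were present too. Summed CPM of 12 adult myofiber genes was 878 to 1420 in the uninjured ZT4 group and 1410 to 1980 in the uninjured ZT16 group. It was 192 to 1020 at day 1 and 1310 to 3050 at day 3. These genes did not move together at day 3 against uninjured muscle, where 7 were higher and 5 lower (median log2 change 0.11). Summed CPM of 10 macrophage genes was 17.7 to 92.8 in uninjured libraries, 1280 to 4180 at day 1 and 267 to 947 at day 3. Summed CPM of 8 fibro-adipogenic (connective tissue) genes was 2760 to 3770 in uninjured libraries, 481 to 814 at day 1 and 1480 to 3320 at day 3. Neutrophil genes (6) summed to at most 3.59 CPM in uninjured libraries, 29.1 to 306 CPM at day 1 and 6.4 to 16.4 CPM at day 3, and 6 endothelial genes to at most 70.5 CPM in every library. A pair of uninjured ZT16 libraries, replicates 1 and 3, stood apart: 6 early response genes (Fos, Fosb, Egr1, Atf3, Jun, Junb) summed to 62227 and 51864 CPM there, against 2523 CPM in replicate 2 and 935 to 3185 CPM in the uninjured ZT4 libraries. For results that use that group, the value without this pair is given where it changed a call or moved a called value by over 1.5 times. In sorted bulk samples, fewer cells of a type and less RNA per cell cannot be told apart.

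The reading frames of the inhibitory peptides are short and lie in a single coding exon each. They are shown because the main transcripts of Mrln and Sln are short (443 and 515 bases), which bears on their levels below. The transcript that holds the Pln reads is longer, at 2353 bases. The start and stop codons are in capitals (GRCm38, read on the plus strand). Mrln has 46 codons before its stop (chr10:70219496-70219636), Sln 31 (chr9:53853473-53853568) and Pln 52 (chr10:53343864-53344022).
Mrln: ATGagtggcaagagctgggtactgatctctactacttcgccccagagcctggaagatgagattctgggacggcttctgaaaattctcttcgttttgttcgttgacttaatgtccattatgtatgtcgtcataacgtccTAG
Sln: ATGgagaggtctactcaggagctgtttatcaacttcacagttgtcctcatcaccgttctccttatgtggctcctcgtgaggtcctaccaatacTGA
Pln: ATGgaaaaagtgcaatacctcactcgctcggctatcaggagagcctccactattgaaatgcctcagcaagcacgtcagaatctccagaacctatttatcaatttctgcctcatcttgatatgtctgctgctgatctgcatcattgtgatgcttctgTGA

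Of the pump inhibitors, Mrln showed the largest change of all 10 genes against uninjured muscle. Its levels in the uninjured ZT4 libraries were 41.0, 41.0 and 67.9 CPM, and in the uninjured ZT16 libraries 14.3, 20.9 and 17 CPM. At day 1 they ran from 0.136 to 0.901 CPM over 8 libraries (median 0.397), and at day 3 from 3.67 to 6.88 CPM (median 5.21). No day 1 library reached any day 3 library, and no day 3 library reached any uninjured one. Mrln fell 65.7-fold at day 1 (log2 change -6.04 ± 0.26 SE, edgeR adjusted p = 5.39e-16) and was 11.4-fold higher at day 3 than at day 1 (3.51 ± 0.27, adjusted p = 8.95e-11). At day 3 it was still 5.75-fold below uninjured muscle (-2.52 ± 0.20, adjusted p = 2.47e-11). The 8 day 1 libraries held 25 Mrln reads in all, so the size of the fall rests on few counts.

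Sln followed a like course at lower levels. Uninjured libraries had 2.03, 5.07 and 14.9 CPM at ZT4 and 4.44, 6.14 and 4.4 CPM at ZT16. Day 1 libraries had 0 to 0.692 CPM (median 0.279), with 17 reads over all 8 and none in 2 of the ZT4 libraries. Day 3 libraries had 0.628 to 3.36 CPM (median 2.19), overlapping both other states. Sln fell 20.8-fold at day 1 (-4.38 ± 0.53, edgeR adjusted p = 5.87e-08), was higher at day 3 than at day 1 (2.65 ± 0.53, adjusted p = 0.000164) and remained below uninjured muscle at day 3 (-1.73 ± 0.43, adjusted p = 0.000926). Without replicate 1 of the day 1 ZT4 group the first value became -5.16 and the second 3.43, both still past the threshold. Fibro-adipogenic genes, as a sum, were also lowest at day 1. Of 8, 5 fell and 1 (Pdgfra) rose at day 1 against uninjured muscle, beside 40.6% and 34.6% of all genes tested. Between day 1 and day 3, 6 rose and 1 (Dpt) fell, beside 26.7% and 28.7% of all genes tested. Their part in the Mrln and Sln results was not tested.

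Pln took another course, lower at each stage. Its levels were 5.31, 7.67 and 6.73 CPM in uninjured ZT4 libraries and 20.1, 11.4 and 7.38 CPM in uninjured ZT16 libraries. They were 1.52 to 4.70 CPM at day 1 (median 3.16) and 0.236 to 2.5 CPM at day 3 (median 0.823). Uninjured and day 1 libraries did not overlap, while those of day 1 and day 3 did. Pln fell 2.89-fold at day 1 (-1.53 ± 0.39, edgeR adjusted p = 0.00108) and 7.54-fold at day 3 (-2.91 ± 0.42, adjusted p = 8.57e-07), both against uninjured muscle, and it was lower at day 3 than at day 1 (-1.38 ± 0.41, adjusted p = 0.0059). The annotation places 141 of its 2759 exonic bases on the opposite strand from Cep85l, and whether counting used strand is not stated. A smooth muscle and mural list, a cell type in which phospholamban is well known, held 8 genes. They summed to 1040 to 1870 CPM in uninjured libraries, 1350 to 1540 CPM at day 1 and 1330 to 1790 CPM at day 3. Of the 8, 5 were lower at day 3 than in uninjured muscle and 2 higher, beside 39.1% and 37.9% of all genes tested. Their part in the Pln result was not tested.

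**Figure D1:**
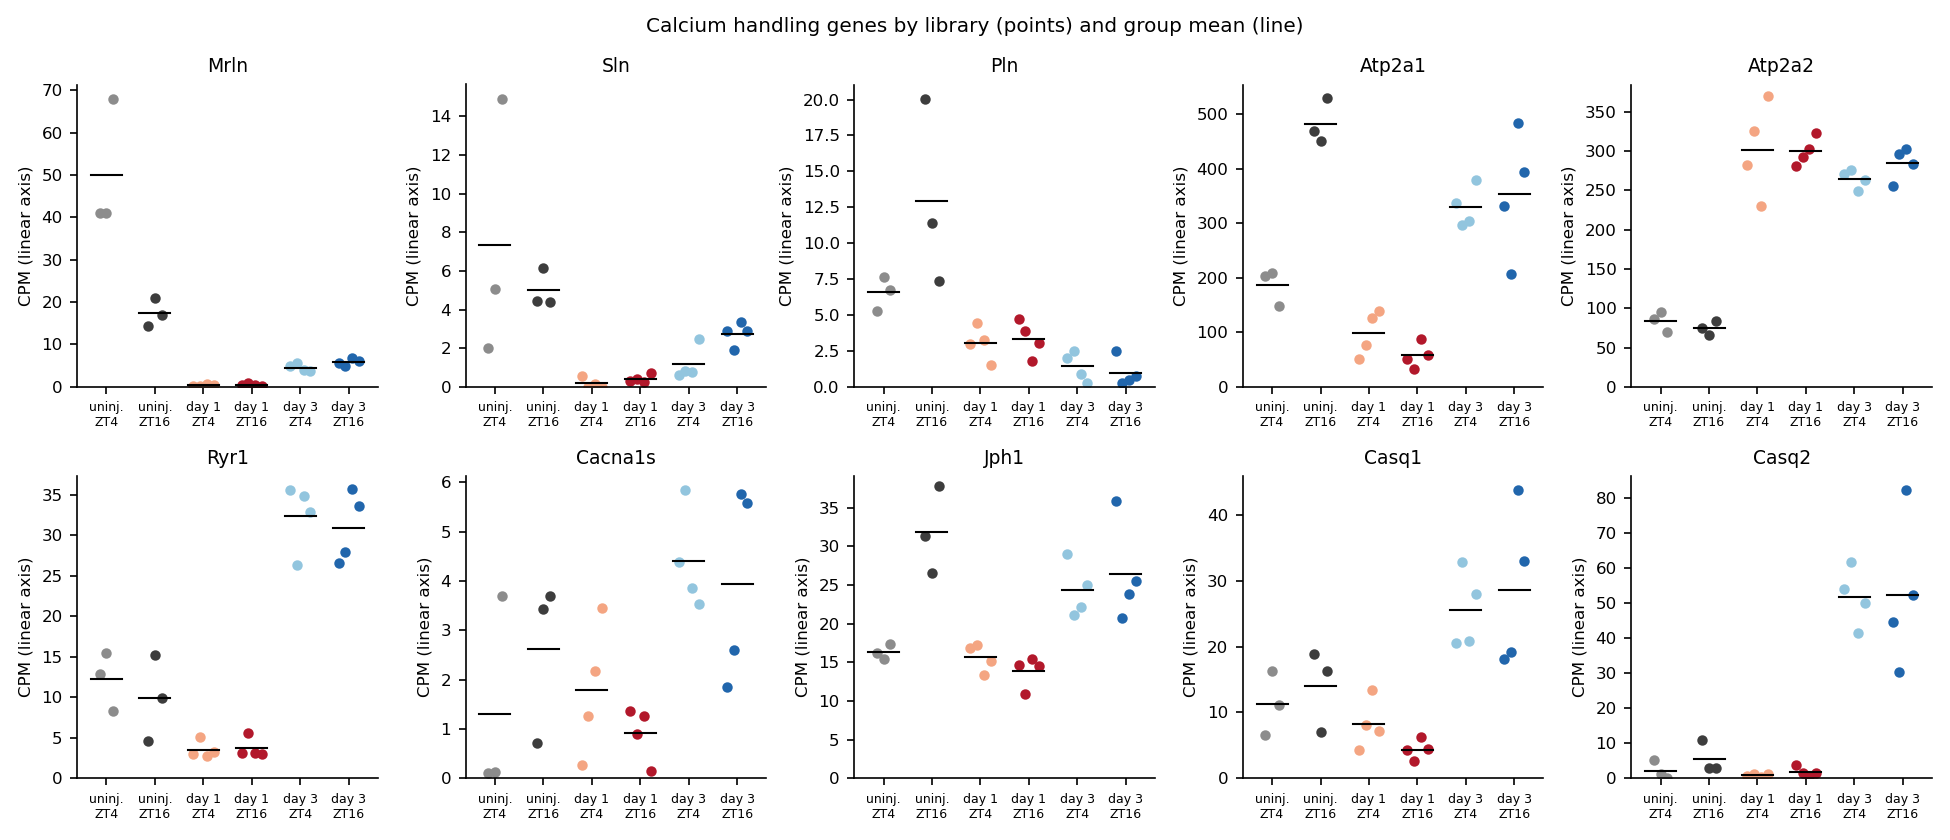
CPM of each of the 10 genes (linear axes from 0, a separate scale in each panel) in the 6 groups; points are libraries and lines are group means. Mrln and Sln were near 0 at day 1 and higher again at day 3, Pln was lowest at day 3, Atp2a2 was above 229 CPM in every injured library, and Casq2 was above 30 CPM only at day 3.

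The pumps changed in opposite ways at day 1. Atp2a1 encodes SERCA1, the pump of fast muscle fibers. Its uninjured levels were 204, 209 and 149 CPM at ZT4 and 469, 450 and 530 CPM at ZT16. Day 1 libraries had 32.8 to 138 CPM (median 67.7), all below every uninjured library, and day 3 libraries had 207 to 484 CPM (median 334), within the uninjured range. Atp2a1 fell 4.00-fold at day 1 (-2.0 ± 0.23, edgeR adjusted p = 4.41e-07) and was 4.54-fold higher at day 3 than at day 1 (2.18 ± 0.22, adjusted p = 2.1e-07). At day 3 against uninjured muscle, with both times averaged, it did not pass the threshold (0.18 ± 0.23, adjusted p = 0.482). The times went in opposite directions there. At ZT4 the mean was 187 CPM uninjured and 329 CPM at day 3 (297 to 380), and at ZT16 it was 483 and 354 CPM. The day 1 means were 98.2 CPM at ZT4 and 57.6 CPM at ZT16. Differences between states within a single time were not tested. Of its 3477 exonic bases, 763 lie opposite exons of Rabep2.

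Atp2a1 moved with the myofiber markers within day 1. The 4 ZT4 libraries held 52.0, 77.0, 126 and 138 CPM of Atp2a1 beside summed myofiber levels of 497, 718, 1017 and 1008 CPM. In the 4 ZT16 libraries Atp2a1 was 51.9, 32.8, 87.1 and 58.4 CPM beside 413, 192, 592 and 467 CPM. The lowest library in one measure was the lowest in the other in both day 1 groups, and the same held in both day 3 groups. In the uninjured ZT4 libraries Atp2a1 was 204, 209 and 149 CPM beside 878, 1290 and 1415 CPM. There the library lowest in Atp2a1 was highest in the markers. In the uninjured ZT16 libraries Atp2a1 was 469, 450 and 530 CPM beside 1407, 1818 and 1983 CPM. Of the 12 myofiber genes 10 fell at day 1 and none rose, beside 40.6% and 34.6% of all genes tested. Between day 1 and day 3, 8 rose and 3 fell, beside 26.7% and 28.7% of all genes tested. Those that fell were Myh4, Ckm and Mybpc2, an adult fast myosin, muscle creatine kinase and fast myosin-binding protein C. The part of fiber RNA in the Atp2a1 result was not tested.

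Atp2a2, the gene of SERCA2, was the only one of the 10 that rose at day 1. Uninjured libraries had 86.0, 94.5 and 69.4 CPM at ZT4 and 75.2, 65.7 and 83.5 CPM at ZT16, while day 1 libraries had 230 to 369 CPM (median 297) and day 3 libraries 249 to 302 CPM (median 273). No injured library overlapped an uninjured one, and the libraries of both days overlapped each other. The rise was 3.81-fold at day 1 (1.93 ± 0.09, edgeR adjusted p = 4.72e-15) and 3.47-fold at day 3 (1.80 ± 0.09, adjusted p = 9.85e-15). The days themselves differed by -0.13 ± 0.08 (adjusted p = 0.178), a value that reached -0.19 (adjusted p = 0.0379) without replicate 3 of the day 1 ZT4 group. Macrophage genes, 10 of 10, also rose at day 1, beside 34.6% of all genes tested. Between day 1 and day 3, 8 of them fell, beside 28.7% of all genes tested. They summed to 1280 to 4180 CPM at day 1 and 267 to 947 CPM at day 3, while the Atp2a2 ranges of the days overlapped. The part of macrophage RNA in the Atp2a2 result was not tested.

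Per length, as TPM (transcript abundance corrected for length), Atp2a1 was the leading SERCA gene in uninjured cells and Atp2a2 at day 1. Atp2a1 made up 69.1 ± 1.46% (SD, n = 3) of summed SERCA TPM in the uninjured ZT4 group, 83.2 ± 1.86% (n = 3) in the uninjured ZT16 group, 26.2 ± 8.61% (n = 8) at day 1 and 67.2 ± 5.94% (n = 8) at day 3. Atp2a2 made up 18.1 ± 0.400%, 8.46 ± 0.663%, 70.6 ± 8.64% and 31.6 ± 6.01% in the same order. Atp2a3, which encodes SERCA3 of nonmuscle cells, took the rest, from 12.7 ± 1.90% in the uninjured ZT4 group to 1.19 ± 0.376% at day 3. Atp2a2 exceeded Atp2a1 in all 8 day 1 libraries and in none of the other 14. Part of the Atp2a1 TPM came from short transcripts with effective lengths of 482 and 135 bases. The longer of them gave 17.5, 9.96 and 27.9% of Atp2a1 TPM in uninjured, day 1 and day 3 libraries, from 482, 70.8 and 1157 estimated reads. The main transcript held 14090, 4307 and 18640 reads. Shares of SERCA TPM thus depend on these lengths, to a different degree in each state.

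The summed TPM of the 3 peptide genes, relative to the summed TPM of the 3 pump genes, was 2.23 ± 1.42 (SD, n = 3) in the uninjured ZT4 group, 0.443 ± 0.0754 (n = 3) in the uninjured ZT16 group, 0.0479 ± 0.0203 (n = 8) at day 1 and 0.129 ± 0.0202 (n = 8) at day 3. Mrln alone accounted for most of it in uninjured cells, with a mean level of 252 TPM at ZT4 and 102 TPM at ZT16. The libraries of these 4 sets did not overlap in this ratio. Its pump side includes the short Atp2a1 transcripts named above. TPM divides reads by an effective length, which is 245 bases on average for the main Mrln transcript, so the level of such a short transcript depends more on that estimate than the level of a pump gene does.

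**Figure D2:**
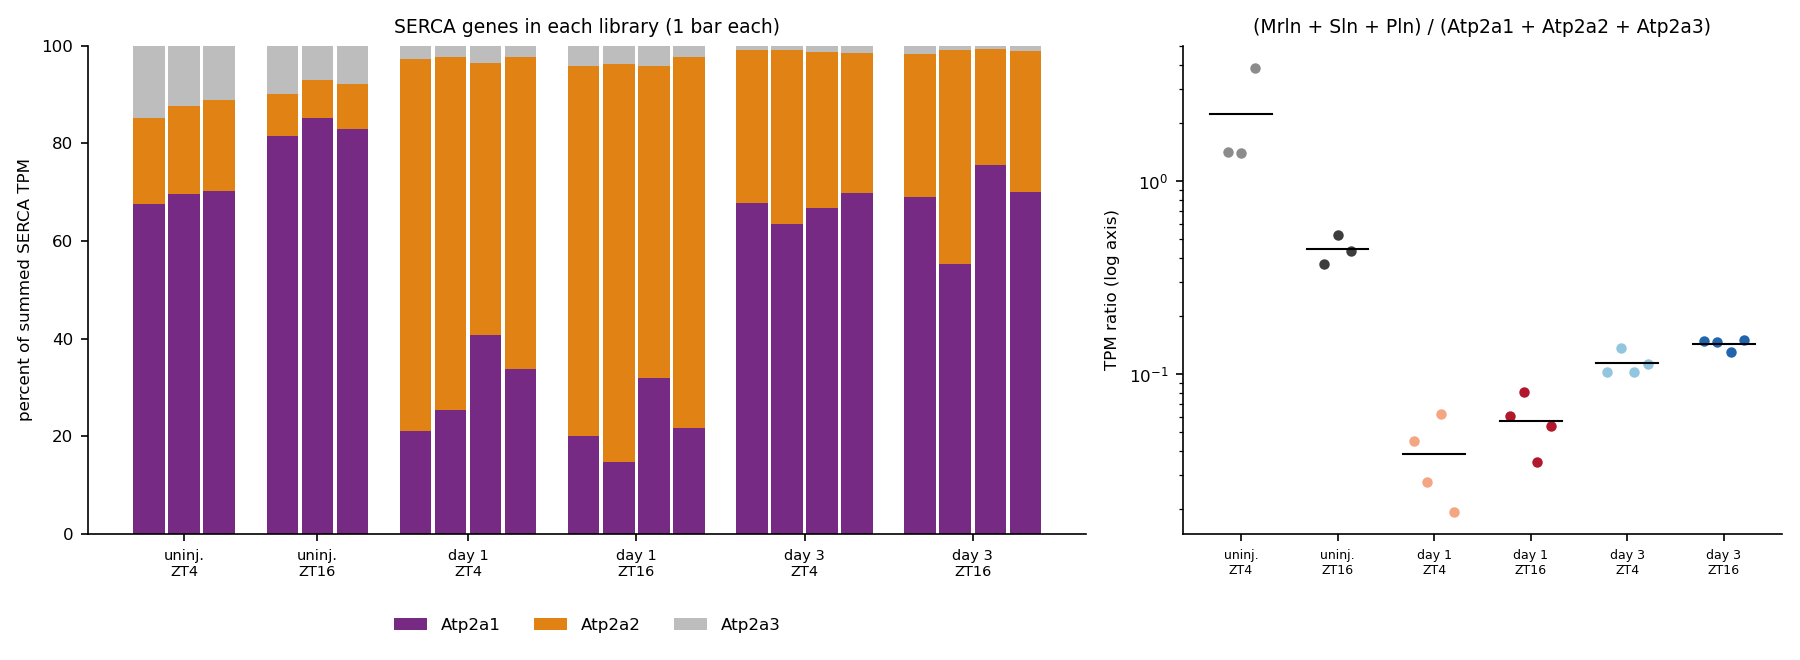
Left, percent of summed SERCA TPM from Atp2a1, Atp2a2 and Atp2a3, 1 bar per library in the 6 groups; right, summed TPM of Mrln, Sln and Pln over summed TPM of the 3 SERCA genes (log axis), with points for libraries and lines for means. Atp2a2 leads in every day 1 library, and the ratio is lowest at day 1.

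Both pump genes make splice forms that differ at the end of the protein, and these are shown because the forms shifted between states. In Atp2a1 a 42-base exon (chr7:126446545-126446586, GRCm38) is kept in SERCA1a, the adult form, and skipped in SERCA1b, the form of neonatal and regenerating fibers. In Atp2a2 the muscle form SERCA2a and the widely expressed SERCA2b use different last exons and have 998 and 1044 codons. Below are 30 shared coding bases followed, in capitals, by the coding bases of one form only, stop codon included. The genes lie on the minus strand and the capitals fall at chr7:126446582-126446586 (SERCA1a), chr7:126446101-126446126 (SERCA1b), chr5:122454291-122454304 (SERCA2a) and chr5:122457151-122457302 (SERCA2b).
SERCA1a: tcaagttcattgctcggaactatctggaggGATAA
SERCA1b: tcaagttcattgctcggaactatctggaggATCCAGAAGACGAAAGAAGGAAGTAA
SERCA2a: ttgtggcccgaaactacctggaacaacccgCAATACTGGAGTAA
SERCA2b: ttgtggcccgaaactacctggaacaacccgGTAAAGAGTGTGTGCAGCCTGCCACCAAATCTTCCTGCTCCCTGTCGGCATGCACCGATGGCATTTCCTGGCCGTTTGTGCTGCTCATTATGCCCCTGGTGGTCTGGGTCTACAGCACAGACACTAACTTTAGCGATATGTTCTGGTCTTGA

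SERCA2a, the muscle form, fell as a share of Atp2a2 at day 1 and was higher again at day 3. It made up 33.9, 34.3 and 32.9% of the TPM of coding Atp2a2 transcripts in the uninjured ZT4 libraries and 21.6, 33.5 and 27.6% at ZT16. At day 1 it was 6.92 to 12.9% (median 9.04), and at day 3 it was 19.9 to 26.3% (median 24.0). Day 1 libraries overlapped neither other state. The share at day 1 minus uninjured muscle was -21.4 percentage points (two-sided exact permutation p = 0.000666, adjusted p = 0.00266 over 12 tests), and at day 3 it was 14.2 points above day 1 (exact permutation p = 0.000155, the smallest that 8 against 8 libraries allow, adjusted p = 0.00093). In levels, the mean of SERCA2b was 17.7 TPM uninjured, 79.7 TPM at day 1 and 62.5 TPM at day 3, while that of SERCA2a was 7.81, 8.08 and 19.2 TPM. The share at day 3 minus uninjured muscle was -7.21 points (exact permutation adjusted p = 0.03), a call lost without uninjured ZT4 replicate 1, 2 or 3 or uninjured ZT16 replicate 2 (adjusted p up to 0.0686). It was -10.2 points without uninjured ZT16 replicates 1 and 3 together (exact permutation adjusted p = 0.00808). The uninjured side then held the 3 ZT4 libraries and ZT16 replicate 2, so the times were not balanced. With all libraries, the mean SERCA2a share was 33.7% at uninjured ZT4 and 27.6% at uninjured ZT16.

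SERCA1b, the form of regenerating fibers, was higher at day 3 than at day 1. Its share of coding Atp2a1 TPM was 20.9, 30.4 and 31.4% in uninjured ZT4 libraries and 13.4, 19.6 and 9.98% in uninjured ZT16 libraries. It was 2.57 to 16% at day 1 (median 10.9) and 25.2 to 36.4% at day 3 (median 26.2), without overlap between the days. The difference was 17.7 points (two-sided exact permutation p = 0.000155, adjusted p = 0.00093). Day 1 minus uninjured muscle was -9.86 points (exact permutation p = 0.02, adjusted p = 0.048), but leaving out a single library lost that call in 10 of 14 cases (adjusted p up to 0.087), and day 3 against uninjured muscle did not pass (7.81 points, exact permutation adjusted p = 0.0789). Without uninjured ZT16 replicates 1 and 3 these were -14.5 points (exact permutation adjusted p = 0.00808) and 3.19 points (adjusted p = 0.349). The uninjured side then held the 3 ZT4 libraries and ZT16 replicate 2, so the times were not balanced. With all libraries, the mean SERCA1b share was 27.5% at uninjured ZT4 and 14.3% at uninjured ZT16. The day 1 shares rest on 2.86 to 16.7 estimated SERCA1b reads per library.

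Between times, no share passed the threshold. In uninjured muscle SERCA1b at ZT16 minus ZT4 was -13.2 points with groups that did not overlap, but 3 against 3 libraries cannot give a two-sided exact permutation p below 0.1. SERCA1a itself was 70.7 ± 19.4 TPM (SD, n = 3) in uninjured ZT4 and 206 ± 20.3 TPM (n = 3) in uninjured ZT16 libraries, and SERCA1b 26.2 ± 6.57 and 34.2 ± 11.3 TPM. At day 1 SERCA2a was 2.98 points higher at ZT16, where the groups did not overlap either (exact permutation p = 0.0286, the smallest possible for 4 against 4, adjusted p = 0.0572). The annotated SERCA1b transcript is incomplete at its start and holds 5 exons of 681 bases, so only reads near the end of Atp2a1 can be given to it. By estimated counts instead of TPM all SERCA1b differences were smaller: 4.03 points between the days, -2.24 points at day 1 and 1.79 points at day 3 against uninjured muscle, and -3.03 points between times in uninjured muscle, with no call changed.

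**Figure D3:**
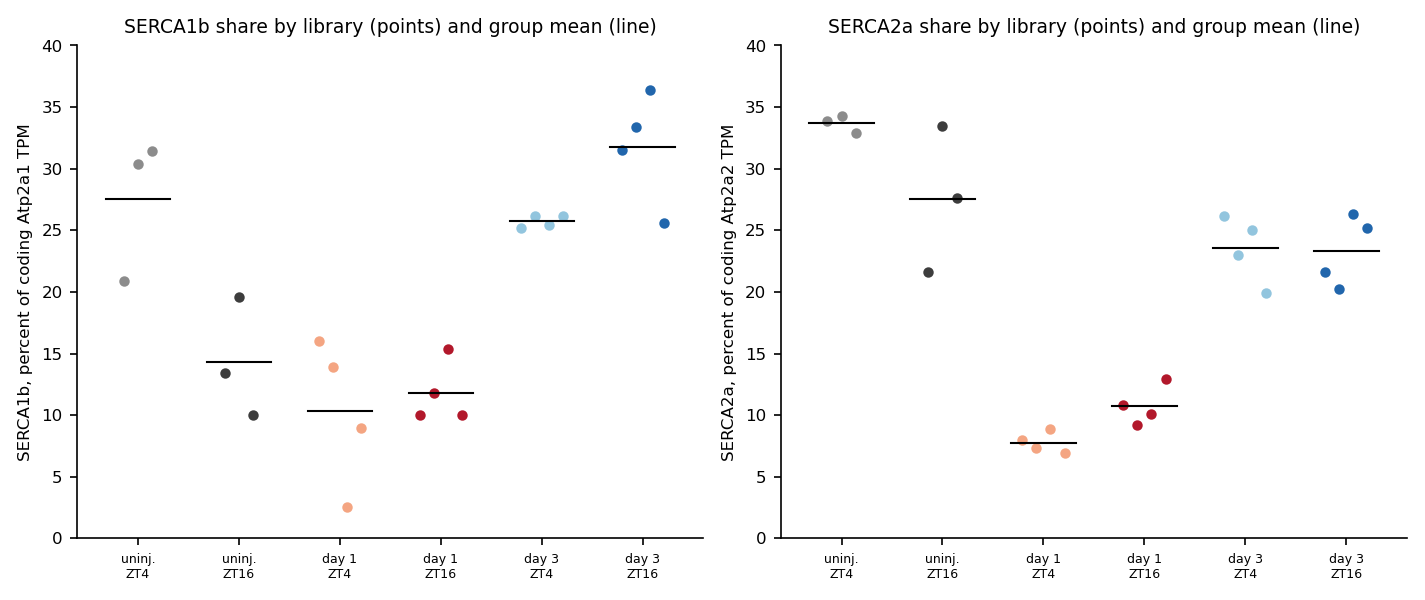
Percent of coding TPM of Atp2a1 from SERCA1b (left) and of Atp2a2 from SERCA2a (right) in the 6 groups; points are libraries, lines are means, axes start at 0. Both shares are lowest at day 1; SERCA1b ranges from 25.2 to 36.4% at day 3 and SERCA2a from 19.9 to 26.3%.

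Ryr1, the release channel, was lower at day 1 and higher at day 3 than in uninjured cells. Uninjured libraries had 12.9, 15.5 and 8.33 CPM at ZT4 and 4.58, 15.3 and 9.94 CPM at ZT16, day 1 libraries 2.80 to 5.53 CPM (median 3.18) and day 3 libraries 26.3 to 35.7 CPM (median 33.3). Day 3 overlapped no other state, and day 1 overlapped uninjured muscle only through the lowest ZT16 library. Ryr1 fell 3.03-fold at day 1 (-1.60 ± 0.22, edgeR adjusted p = 6.73e-07) and rose 2.86-fold at day 3 (1.52 ± 0.21, adjusted p = 4.85e-07), both against uninjured muscle, which left day 3 higher than day 1 by 8.67-fold (3.12 ± 0.21, adjusted p = 7.64e-12).

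Cacna1s, the voltage sensor that opens Ryr1, was scarce and uneven. Its levels were 0.113, 0.124 and 3.69 CPM in uninjured ZT4 and 0.716, 3.43 and 3.69 CPM in uninjured ZT16 libraries, 0.138 to 3.45 CPM at day 1 (median 1.27) and 1.85 to 5.84 CPM at day 3 (median 4.13). All 3 states overlapped. It was higher at day 3 than at day 1 (1.68 ± 0.55, edgeR adjusted p = 0.0125), and passed the threshold neither at day 1 (-0.48 ± 0.62, adjusted p = 0.49) nor at day 3 (1.2 ± 0.59, adjusted p = 0.0674) against uninjured muscle. Without uninjured ZT4 replicate 3, the high library of that group, the last value became 2.80 (adjusted p = 0.00029). It also passed with DESeq2 (1.24, adjusted p = 0.0475), with limma voom (2.35, adjusted p = 0.00683) and with no filter on low counts (1.33, adjusted p = 0.00514). With offsets for effective length the day 3 against day 1 value was 1.13 (adjusted p = 0.08).

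Jph1, which holds the membranes of the triad together, was lower at day 1 and, with both times averaged, near its uninjured level at day 3. It was 16.3, 15.5 and 17.3 CPM in uninjured ZT4 and 31.4, 26.6 and 37.8 CPM in uninjured ZT16 libraries, 10.9 to 17.2 CPM at day 1 (median 14.9) and 20.7 to 35.8 CPM at day 3 (median 24.4). The day 1 range overlapped that of uninjured ZT4 and lay below uninjured ZT16 and day 3. Jph1 fell at day 1 (-0.63 ± 0.14, edgeR adjusted p = 0.00021) and was higher at day 3 than at day 1 (0.78 ± 0.13, adjusted p = 1.16e-05). Day 3 against uninjured muscle was 0.15 ± 0.13 (adjusted p = 0.299). By time, the means were 16.3 CPM uninjured and 24.3 CPM at day 3 at ZT4, and 31.9 and 26.5 CPM at ZT16. Without uninjured ZT16 replicates 1 and 3, Jph1 was -0.40 at day 1 (adjusted p = 0.0381) and passed at day 3 as well (0.40, adjusted p = 0.0413).

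The calsequestrins both rose by day 3, with Casq2, the form of slow and cardiac muscle, far ahead. Casq2 was 5.08, 1.11 and 0.160 CPM in uninjured ZT4 and 11, 3 and 2.84 CPM in uninjured ZT16 libraries, 0.311 to 3.79 CPM at day 1 (median 1.17) and 30.4 to 82.0 CPM at day 3 (median 51.1). Every day 3 library lay above every other library. Casq2 was 14.5-fold higher at day 3 than in uninjured muscle (3.86 ± 0.44, edgeR adjusted p = 2.14e-07) and 42.1-fold higher than at day 1 (5.40 ± 0.45, adjusted p = 8.91e-09). Its fall at day 1 (-1.54 ± 0.55, adjusted p = 0.0171) was -0.59 (adjusted p = 0.408) without uninjured ZT4 replicate 1 and -0.97 (adjusted p = 0.111) without uninjured ZT16 replicate 1, the highest libraries of their groups. It was -0.99 (adjusted p = 0.171) without uninjured ZT16 replicates 1 and 3, -0.99 (adjusted p = 0.119) with offsets for effective length and -1.18 (adjusted p = 0.233) with limma voom. Without the first of these, the rise at day 3 was 4.75 (adjusted p = 2.01e-08).

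Casq1, the calsequestrin of fast fibers, was 6.55, 16.3 and 11.1 CPM in uninjured ZT4 and 18.9, 7 and 16.3 CPM in uninjured ZT16 libraries, 2.57 to 13.4 CPM at day 1 (median 5.33) and 18.1 to 43.8 CPM at day 3 (median 24.4). Its ranges overlapped between uninjured muscle and each day, but day 3 lay above day 1. Casq1 fell at day 1 (-1.08 ± 0.29, edgeR adjusted p = 0.00218) and rose at day 3 (1.09 ± 0.28, adjusted p = 0.00132). Without uninjured ZT16 replicates 1 and 3 these values were -0.48 (adjusted p = 0.23) and 1.71 (adjusted p = 0.000336). By mean TPM, the scale on which genes can be compared, Casq1 exceeded Casq2 in uninjured muscle (11.8 against 2.62 TPM) and at day 1 (5.56 against 1.21 TPM), and Casq2 exceeded Casq1 at day 3 (30.6 against 22.5 TPM).

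Slow and cardiac fiber markers, 8 genes, summed to 8.33 to 29.9 CPM in uninjured libraries, 3.09 to 13.4 CPM at day 1 and 95.9 to 249 CPM at day 3, with Myh6 and Nppa at 0 in some groups. Of 5 that were tested, 2 rose and 2 fell at day 3 against uninjured muscle, beside 37.9% and 39.1% of all genes tested. Of 12 genes of early differentiation and fusion, 12 rose in that comparison. Among them were Chrna1 (2.51 ± 0.10, edgeR adjusted p = 1.44e-16), an acetylcholine receptor subunit, and Mymx (5.44 ± 0.31, adjusted p = 1.23e-12), a fusion peptide. The part of these cells or stages in the Casq2 result was not tested.

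Counted over the 10 genes, 9 passed the threshold at day 1 against uninjured muscle, 1 up and 8 down. Of all genes tested 75.2% passed in that comparison (34.6% up, 40.6% down), so the count of 9 stands beside a background in which most genes changed. At day 3 against uninjured muscle, 7 passed, 4 up and 3 down, beside 76.9% of all genes (37.9% up, 39.1% down). Between day 3 and day 1, 9 passed, 8 up and 1 down, beside 55.4% of all genes (26.7% up, 28.7% down). The median log2 change of the 10 genes was -1.54, 0.64 and 2.18 in these comparisons, against -0.13, -0.03 and -0.02 over all genes tested. The first and second comparison share the 6 uninjured libraries.

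**Figure D4:**
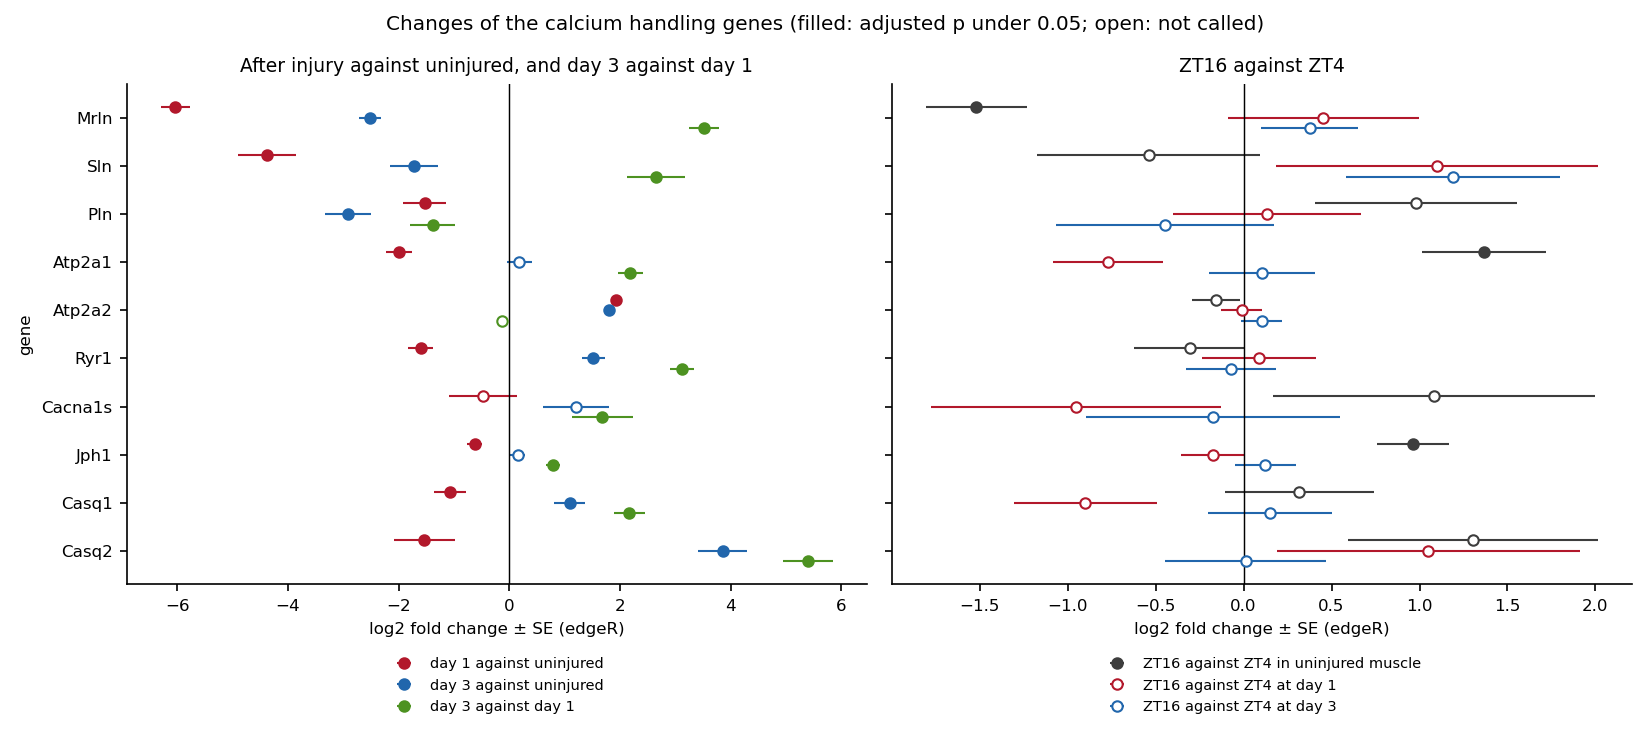
Log2 fold changes with SE of the 10 genes from edgeR, between states (left) and at ZT16 against ZT4 within a state (right); filled points passed an adjusted p of 0.05. At day 1, 8 genes were lower and Atp2a2 was higher, and between times only Mrln, Atp2a1 and Jph1 in uninjured muscle are filled.

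Time of day was compared within each state, ZT16 against ZT4. In uninjured muscle 3 of the 10 genes passed, 2 up and 1 down, beside 17.7% of all genes (8.53% up, 9.12% down). Mrln was 2.86-fold lower at ZT16 (-1.52 ± 0.29, edgeR adjusted p = 7e-04), Atp2a1 was 2.58-fold higher (1.37 ± 0.35, adjusted p = 0.0119) and Jph1 was 1.95-fold higher (0.97 ± 0.20, adjusted p = 0.00181). None of these genes overlapped between the times, but they are the ones that passed between these same libraries, so this adds no support. How many of all genes do not overlap was not counted. The inhibitor Mrln and its target Atp2a1 differed in opposite directions. The Mrln to SERCA ratio in TPM, built from the same genes, was 1.25 to 3.30 at ZT4 and lower in all 3 ZT16 libraries.

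The libraries of the uninjured ZT16 group bear on these results. Replicate 2, which did not share the high early response genes, had 20.9 CPM of Mrln, 450 CPM of Atp2a1 and 26.6 CPM of Jph1. Each lay outside the ZT4 range on the same side as the others. These genes were picked by a test that held this library, so that adds no support. With that library alone at ZT16, assumed to vary like the other groups, the values were -1.27 for Mrln (edgeR adjusted p = 0.114), 1.26 for Atp2a1 (adjusted p = 0.179) and 0.69 for Jph1 (adjusted p = 0.18), and 0 of the 10 passed. Atp2a1 also did not pass without uninjured ZT4 replicate 3 (1.23, adjusted p = 0.054). Of the 12 myofiber markers, 12 had a positive change, with a median of 0.55 against 0.0 over all genes tested. The share of all genes with a positive value was not counted. Only 1 of the 12 was called, Actn3 (0.81, or 0.76 without the pair), beside 8.53% of all genes called higher. The part of these markers in the Atp2a1 result was not tested.

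The other 7 genes did not pass between times in uninjured muscle. Pln (0.98 ± 0.57, edgeR adjusted p = 0.257), Casq2 (1.3 ± 0.71, adjusted p = 0.227) and Cacna1s (1.08 ± 0.92, adjusted p = 0.461) had positive values with wide errors. Sln (-0.54 ± 0.63, adjusted p = 0.607) and Ryr1 (-0.31 ± 0.32, adjusted p = 0.558) had negative ones. Casq1 (0.32 ± 0.43, adjusted p = 0.665) had a smaller positive value and Atp2a2 (-0.16 ± 0.14, adjusted p = 0.476) a smaller negative one. The values of Ryr1 (0.31) and Casq1 (-0.70) changed sign without uninjured ZT16 replicates 1 and 3, again without a call. Leaving out the high ZT4 library of Casq2 (replicate 1) or of Cacna1s (replicate 3) gave 2.97 (adjusted p = 0.0213) and 4.28 (adjusted p = 0.00966).

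After injury, 0 of the 10 genes differed between ZT4 and ZT16 by edgeR at day 1 or at day 3, beside 0% of all genes at both days. An unadjusted edgeR p lay under 0.05 for 920 of 15084 genes at day 1 and 1003 at day 3. By chance alone a share of 0.05 of the genes would do so. The smallest adjusted p of any gene was 0.187 at day 1 and 0.143 at day 3. Atp2a1 (-0.77 ± 0.31, adjusted p = 0.722) and Casq1 (-0.90 ± 0.41, adjusted p = 0.782) were among the 920 at day 1. By DESeq2 and by limma voom the count over the 10 genes was also 0 at both days. All 12 myofiber markers had negative values at day 1 (median -1.01, against 0.01 over all genes tested), and 0 were called. The share of all genes with a negative value was not counted.

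Whether the time difference itself changed with injury was tested as an interaction. At day 1, 2 of the 10 genes passed, both down, beside 7.46% of all genes (3.93% up, 3.53% down): the time difference minus that in uninjured muscle was -2.14 ± 0.47 for Atp2a1 (edgeR adjusted p = 0.0123) and -1.14 ± 0.27 for Jph1 (adjusted p = 0.0133). Mrln did not pass (1.97 ± 0.62, adjusted p = 0.0536), but it did with DESeq2 (adjusted p = 0.0408), with upper quartile scaling (adjusted p = 0.0479) and in 4 of 14 fits that left out 1 library (adjusted p from 0.0245 to 0.202 over the 14). At day 3, 2 passed, 1 up and 1 down, beside 12.8% of all genes (6.80% up, 5.97% down): Mrln (1.89 ± 0.40, adjusted p = 0.00268) and Jph1 (-0.84 ± 0.27, adjusted p = 0.0394), while Atp2a1 had -1.26 ± 0.46 (adjusted p = 0.0827, and 0.018 with DESeq2). The Jph1 call at day 3 was lost in 9 of 14 fits that left out 1 library (adjusted p from 0.00931 to 0.116) and under 5 of 9 other settings (adjusted p up to 0.398). None passed without uninjured ZT16 replicates 1 and 3, where the values were -2.02 (adjusted p = 0.134), -0.86 (adjusted p = 0.238), 1.64 (adjusted p = 0.0865) and -0.57 (adjusted p = 0.398) for the 4 calls in the order given.

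Other genes of the same systems were followed through lists. Of 15 genes of excitation-contraction coupling and the triad, 4 rose (Bin1, Cav3, Jph2, Dysf) and 7 fell at day 1 against uninjured muscle, with Jsrp1 (-1.65 ± 0.10, edgeR adjusted p = 3.05e-13), a partner of the voltage sensor, Cacnb1 (-2.21 ± 0.24, adjusted p = 7.53e-09), its beta subunit, and Tmem38a (-1.22 ± 0.14, adjusted p = 2.52e-08), a potassium channel of the reticulum, among those that fell. That is 11 of 15 called, beside 75.2% of all genes. At day 3, 11 rose and 3 fell (Jsrp1, Cacna2d1, Sypl2), beside 76.9% of all genes. Cacng1, the gamma subunit of the voltage sensor, was 64.9 ± 14.5 CPM (SD, n = 8) at day 3 and 7.01 ± 3.64 CPM (n = 6) uninjured, and sarcalumenin, a store protein encoded by Srl, was 158 ± 38.9 CPM (n = 8) and 24.2 ± 7.65 CPM (n = 6). Between day 1 and day 3, 13 rose and none fell, beside 26.7% and 28.7% of all genes, and Sypl2 and Trdn did not pass. Jph2, which builds triads like Jph1, had 1.2 ± 0.20 at day 1 and 3.18 ± 0.20 at day 3.

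The remaining small SERCA regulators differed from Mrln at day 3, where both lay above uninjured muscle. Smim6 (endoregulin) was scarce, at 0.864 ± 0.559 CPM (SD, n = 6) uninjured, 0.208 ± 0.188 CPM (n = 8) at day 1 and 4.03 ± 1.82 CPM (n = 8) at day 3. It fell at day 1 (-1.99 ± 0.66, edgeR adjusted p = 0.00842) and rose above uninjured muscle at day 3 (2.17 ± 0.54, adjusted p = 0.000839). 1810037I17Rik (another-regulin) was 48.3 ± 6.44, 83.1 ± 7.52 and 75.2 ± 7.92 CPM in the same states and rose at day 1 (0.78 ± 0.09, adjusted p = 1.88e-08) and at day 3 (0.64 ± 0.09, adjusted p = 4.2e-07). Strit1 was not found by its symbol and was not analysed here.

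Of 16 tested genes of the calcium store and its refilling in most cells, 5 rose and 5 fell at day 1 and 7 rose and 8 fell at day 3, against uninjured muscle, beside 75.2% and 76.9% of all genes called. Calr and Canx, which encode chaperones of the endoplasmic reticulum, were among those that rose at day 1, with Calr at 1.67 ± 0.09 (edgeR adjusted p = 9.28e-15) and Canx at 1.01 ± 0.08 (adjusted p = 4.69e-11). The tested release channels other than Ryr1 (Itpr1, Itpr2, Itpr3, Ryr3) all fell at day 3. Itpr2, an inositol trisphosphate receptor, was 161 ± 17.6 CPM (SD, n = 6) uninjured, 52.6 ± 6.47 CPM (n = 8) at day 1 and 11.8 ± 2.64 CPM (n = 8) at day 3 (-3.75 ± 0.12 at day 3, adjusted p = 2.19e-18). Atp2a3 fell at both days (-2.21 ± 0.18 and -2.65 ± 0.18, adjusted p = 6.46e-11 and 2.43e-12).

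Ryr3, the minor ryanodine receptor of muscle, ran opposite to Ryr1 at day 3, at 1.97 ± 0.660 CPM (SD, n = 8) against 31.7 CPM of Ryr1. By length, the mean of Ryr3 was 18.7 TPM and that of Ryr1 1.00 TPM in uninjured cells, and at day 3 they were 1.2 and 2.66 TPM. Ryr3 thus stood higher beside Ryr1 in TPM than in CPM at day 3. TPM depends on the lengths of the transcripts to which reads were given, and these were not examined for Ryr3. Ryr3 fell at day 1 (-2.20 ± 0.26, edgeR adjusted p = 1.17e-07) and at day 3 (-4.38 ± 0.30, adjusted p = 1.28e-11). In uninjured muscle it was 18.1 ± 9.68 CPM (n = 3) at ZT4 and 96.9 ± 10.5 CPM (n = 3) at ZT16, a difference of 2.43 ± 0.39 (adjusted p = 0.000244) that exceeded the spread of both groups. It was 2.55 (adjusted p = 0.0108) without uninjured ZT16 replicates 1 and 3. With all libraries, 4 of the 16 were higher and 1 lower in this comparison, beside 8.53% and 9.12% of all genes tested. Besides Ryr3 they were Stim2, Itpr1 and Stim1 (higher) and Fkbp1a (lower), and the other 11 did not pass. Without the pair none of these 4 passed (edgeR adjusted p = 0.431 for Stim2, 0.08 for Itpr1, 0.369 for Stim1 and 0.202 for Fkbp1a).

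Of 9 tested genes of cytosolic buffering and export, 3 rose and 5 fell at day 1 and 4 rose and 4 fell at day 3, beside 75.2% and 76.9% of all genes called. The parvalbumin gene Pvalb, a calcium buffer of adult fast fibers, fell to 0.852 ± 1.23 CPM (SD, n = 8) at day 3 from 25.2 ± 9.48 CPM (n = 6) uninjured (-5.09 ± 0.59, edgeR adjusted p = 1.86e-07), while Casq1 and Casq2 rose there. Across the lists counted here against uninjured muscle, leaving out uninjured ZT16 replicates 1 and 3 added Asph (triad) and Itga7 and Sdc4 (stem cell), all higher, to the genes called at day 1 and removed Myh1 (myofiber), Dcn (fibro-adipogenic) and Slc8a3 (export) at day 1 and Fkbp1b (store) at day 3, beside 69.7% and 72.1% of all genes called at day 1 and day 3 in that fit.

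**Figure D5:**
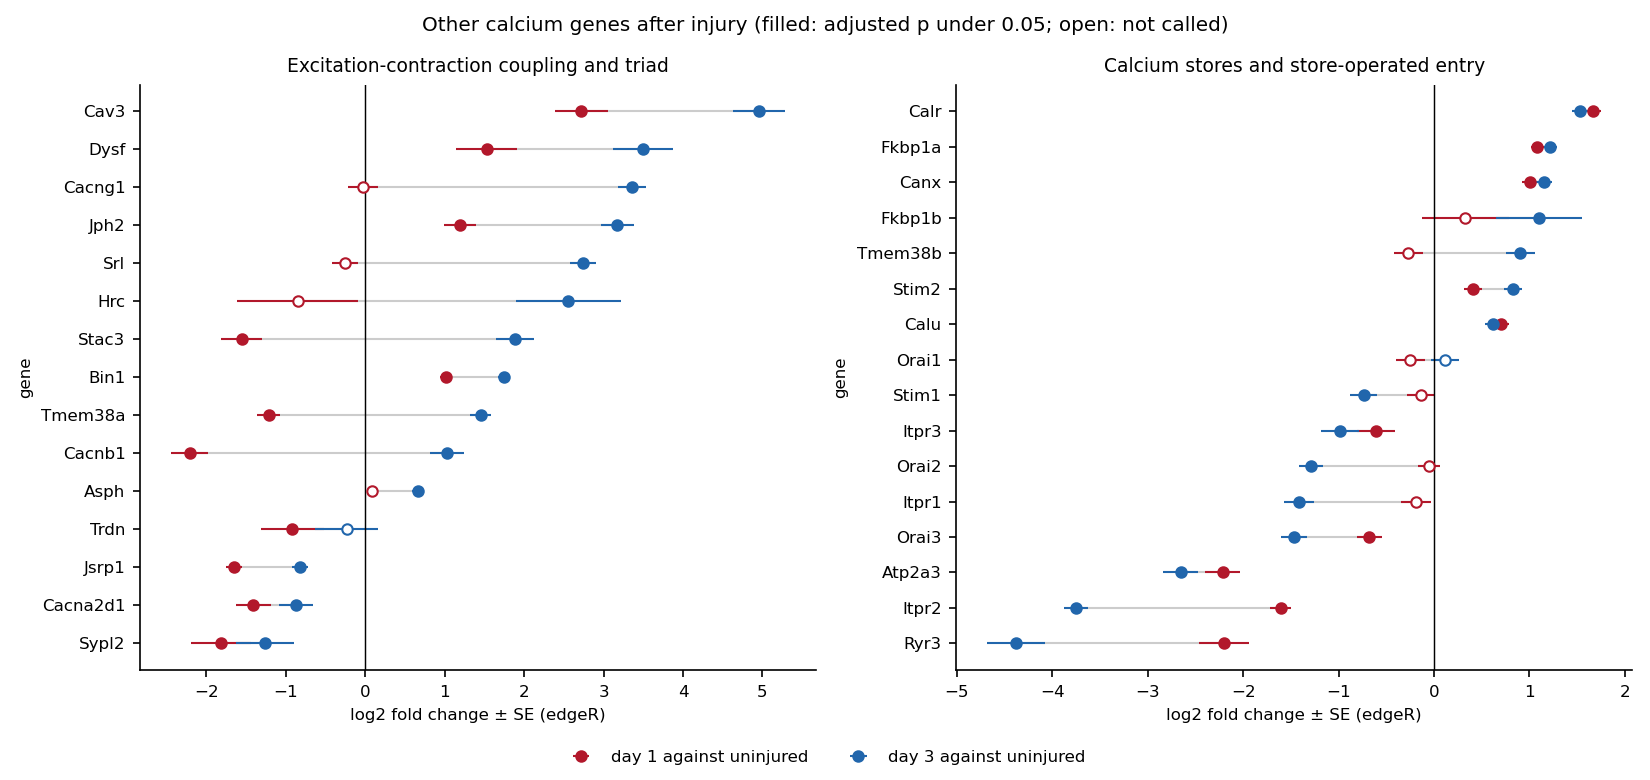
Log2 fold changes with SE against uninjured muscle at day 1 (red) and day 3 (blue) from edgeR for 15 excitation-contraction coupling genes (left) and 16 tested calcium store genes (right), ordered by the day 3 value; filled points passed an adjusted p of 0.05. On the left 11 genes lie above 0 at day 3, and on the right Ryr3 and Itpr2 lie lowest.

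Across the 22 libraries the 10 genes did not vary as 1 block. As a description over log2 CPM of libraries that share groups and depth, Mrln and Sln had Pearson r = 0.88, Atp2a1 had r = 0.84 with Jph1 and 0.83 with Casq1, and Ryr1 had r = 0.84 with Casq2. Atp2a2 was opposite to the peptide genes, with r = -0.81 for Mrln, -0.74 for Sln and -0.71 for Pln. Among all other tested genes the most like Mrln was Fitm1 (r = 0.97), followed by Rdh5, Jsrp1, Wbp1 and Crip2. Fitm1 was 56.3 ± 13.1 CPM (SD, n = 6) uninjured, 14.6 ± 2.34 CPM (n = 8) at day 1 and 29.9 ± 2.10 CPM (n = 8) at day 3. The genes most like Atp2a1 were Pgam2 (r = 0.96), Actn3, Tnnc2, Sec23a and Nisch, of which Actn3 and Tnnc2 are among the myofiber markers, and those most like Atp2a2 were Plxna1 (r = 0.99), Lrrc59, Hnrnpab, Ran and Sec61a1.

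The 250 bases before the start of Mrln are shown because Mrln had the largest change against uninjured muscle and differed by time of day (RefSeq, GRCm38.p6, chr10:70204414-70204663, plus strand). The capitals mark the CACCTG that starts at position -93 relative to the gene start, one spelling of the E-box CANNTG that myogenic factors can bind.
Mrln promoter: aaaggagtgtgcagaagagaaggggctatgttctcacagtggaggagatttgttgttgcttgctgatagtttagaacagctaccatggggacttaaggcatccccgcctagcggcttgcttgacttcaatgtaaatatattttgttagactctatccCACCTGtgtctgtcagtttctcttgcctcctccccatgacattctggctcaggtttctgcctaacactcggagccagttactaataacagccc

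Promoter windows of 7 of the 10 genes were at hand (Mrln, Pln, Atp2a1, Ryr1, Casq1, Casq2, Cacna1s), and motifs were searched on both strands. CANNTG of any spelling was found in 6 of 7 windows, all but Ryr1, and in 66.2% of 32851 promoters. CACCTG was found in Mrln and Casq1 and in 17.2% of promoters, and CAGCTG in Atp2a1, Casq1 and Cacna1s and in 13%; both are spellings of CANNTG and overlap with it. A MEF2 site was found in Casq2 alone and in 2.92% of promoters. The clock motifs CACGTG (an E-box) and TTATGTAA (a D-box) were in none of the 7 windows and in 6.02% and 0.819% of promoters, and AGGTCA was in Atp2a1 and in 14%.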

How the data were processed

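The deposited files are transcript tables of RSEM, 1 per library for 22 libraries, and per the file headers they give an expected count, a TPM and an effective length for each of 103732 transcripts. RSEM 1.3.3, STAR 2.5.2, Trimmomatic 0.33 and DESeq2 are named, with mm10, in the submitters' processing notes; roles, strand and annotation release are not given in the sources used here. Per the labels, libraries were made with SMART-seq v4 from fixed, sorted cells. No column was left without a sample.

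The authors' expected counts were summed per gene and rounded (43430 genes; symbols from GENCODE M21, build GRCm38, were found for 42462). All libraries entered 1 quasi-likelihood fit in edgeR 4.0.16 (R 4.3.3) with TMM scaling (factors 0.942 to 1.094), 1 mean for each of the 6 groups, filterByExpr with a count of 10 and a total of 15 as minimum (15084 genes kept) and Benjamini-Hochberg adjustment over all of them, with 0.05 as the threshold. State comparisons average both times. SE was derived from the F statistic. CPM is scaled by TMM and relative to the other RNA in a library. Splice shares use the authors' deposited TPM, over libraries with at least 10 estimated counts of the gene, tested by two-sided exact permutation. Scripts were tested on simulated data. DESeq2 1.42.0 and limma 3.58.1 served as alternatives, with Python 3.11.15, pandas 2.3.3, scipy 1.17.1 and matplotlib 3.10.9 for summaries.

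The 10 genes and the other 13 lists (125 genes) were chosen with earlier results of these data known. All 10 genes are named. Up to 4 genes of a list are named per comparison by smallest p among those past the threshold, along with all genes behind a count of 5 or fewer where needed and the 5 genes most correlated with Mrln, Atp2a1 and Atp2a2. Cacng1, Srl and Pvalb levels, the later values of Ryr3 and the store channels at day 3 were added for description after their values were seen. Fos and the other early response genes were picked the same way.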

Additional observations from a re-analysis of the deposited data

Results flagged for a closer look

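A library stood far from the other 3 of its group in 2 of the 48 groups of 4 checked, where chance gives about 1 in 20. Sln was 2.49 CPM in 1 day 3 ZT4 library, against 0.628 to 0.834 CPM in the others. Ryr1 was 5.53 CPM in 1 day 1 ZT16 library, against 3.05 to 3.19 CPM in the others.

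The time difference (ZT16 against ZT4) differed between injured and uninjured muscle by the edgeR interaction test in 4 cases. For Atp2a1 the interaction at day 1 was -2.14 (adjusted p = 0.0123). For Jph1 it was -1.14 at day 1 (adjusted p = 0.0133) and -0.84 at day 3 (adjusted p = 0.0394), the latter lost in 9 of 14 fits that left out 1 library. For Mrln it was 1.89 at day 3 (adjusted p = 0.00268). All 4 rest on the uninjured ZT16 group, in which replicates 1 and 3 had high early response genes.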

How the results depend on the processing

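Of 1625 values of single genes under other settings, 1529 kept their direction and side of the threshold, 39 changed sign without a call in either fit, 30 lost a call, 27 gained one and no called value reversed. Without uninjured ZT16 replicates 1 and 3 together, 0 of the 10 genes passed between times in uninjured muscle, 0 in the interaction at day 1 and 0 in that at day 3; fewer libraries were fitted there. The day 3 interaction count was 1 under upper quartile scaling and 1 with effective length offsets, and 1 to 3 when a single library was left out, with Jph1 lost most often. The day 1 interaction count was 1 with limma voom, where Atp2a1 had an adjusted p of 0.0552. With no filter on low counts, 1 gene passed between times at day 1 (Atp2a1, -0.76, adjusted p = 1.11e-06). The cause was not tested for these. Leaving out 1 library, the SERCA1b difference ranged from -12.1 to -7.77 points (day 1 against uninjured) and from 5.62 to 9.90 points (day 3 against uninjured, called once), and the SERCA2a difference at day 3 against uninjured from -9.01 to -6.47 points. A denominator of all listed transcripts, chosen after seeing the data, changed no call on the shares. Same-numbered libraries did not deviate together (r from -0.096 to 0.097, best match the own number in 3 of 11), so the numbers were not taken as pairs. With the replicate block 8 of the 10 genes passed at day 3 against uninjured muscle, where Cacna1s had 1.42 (adjusted p = 0.0319), and the day 3 interaction of Atp2a1 passed (-1.27, adjusted p = 0.0469). Leaving out that pair of libraries was also applied, after seeing the data, to the shares and to the other lists. Low counts limit Mrln, Sln and SERCA1b at day 1 and Cacna1s and Casq2 in uninjured libraries.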

Other observations

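Genes of early differentiation and fusion, 12 in all, had lower levels at day 1 than in uninjured cells in 8 cases, as Mrln and Sln did. A higher level was found in 1 (Chrna1, 0.59 ± 0.10, edgeR adjusted p = 7.62e-06). Of all genes tested, 40.6% were lower and 34.6% higher at day 1. Tnnt1, the slow troponin T, fell by 2.78 on the log2 scale (adjusted p = 2.6e-13), Mymk, a fusion protein, by 6.04 (adjusted p = 3.55e-10), Myog, the differentiation factor myogenin, by 4.94 (adjusted p = 3.05e-09) and Actc1, the cardiac actin of developing muscle, by 4.96 (adjusted p = 3.71e-09). In uninjured muscle, Chrna1 (-1.0 ± 0.15, adjusted p = 7.31e-05) and Tnnt1 (-0.92 ± 0.23, adjusted p = 0.00594) were lower at ZT16. Myh8, the perinatal myosin, had 0 reads in the 3 ZT4 libraries and 19 over the 3 ZT16 libraries, 16.3 of them in 1 library and none in another, so its adjusted p of 0.016 rests mainly on 1 library. The other 9 did not pass. Without uninjured ZT16 replicates 1 and 3, Chrna1 was -0.80 (adjusted p = 0.0367) and Tnnt1 -0.98 (adjusted p = 0.125), and the fall of Myh3 at day 1 no longer passed.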
